A study of Mus musculus with 56 samples.

Results

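The first 4 h of nighttime feeding were examined in visceral adipose tissue (VAT) of nighttime-restricted fed (NRF) mice, by setting 4 mice collected at ZT16 against 4 collected at ZT12. ZT is zeitgeber time, the hours since lights on in a cycle of 12 h light and 12 h dark, so ZT12 is the end of the light-phase fast and ZT16 lies 4 h into the dark phase, when these mice had food. The members were chosen by their labels alone, and they are 8 of the 56 mice of the series. All 56 were C57BL/6J females, 9 weeks old at collection, with no altered allele or agent named in the labels, and had been on their regimen for 7 days after a week of chow without restriction. The other regimen, daytime-restricted feeding (DRF), gave food in the light phase and serves here as a comparison in 2 ways. DRF mice from ZT0 to ZT4 had the same first 4 h of food at the opposite clock time, and DRF mice from ZT12 to ZT16 passed through the same clock hours while food was withdrawn. Each library is the poly-A RNA of 1 mouse, so p-values measure the spread between mice. No library is shared between the changes that are compared with each other.

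White fat switches between release and storage with meals. In the fast, hormone-sensitive lipase and its partners split stored triglyceride, and phosphoenolpyruvate carboxykinase supplies glycerol phosphate for re-esterification. After a meal, insulin slows lipolysis and drives glucose uptake, glycogen and lipid synthesis. Fat cells also carry the circadian clock, in which BMAL1 (encoded by Arntl) and CLOCK bind E-boxes and switch on the Period, Cryptochrome and REV-ERB genes, whose products repress BMAL1 and CLOCK activity or transcription in turn.

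The 8 libraries held 3.49e+07 to 3.64e+07 reads in genes (3.10e+07 to 4.10e+07 over the 56). Libraries of the same group correlated at 0.986 to 0.994 across genes and those of different groups at 0.973 to 0.989. The first principal component of the 8 libraries carried 46.3% of the variance and separated both groups. Among the ZT16 mice, replicate 3 lay nearest to the ZT12 mice. It gave the lowest ZT16 value in 542 of the 1232 genes that rose and the highest in 538 of the 1122 that fell. Among the ZT12 mice, replicate 4 lay nearest to the ZT16 mice, with the highest ZT12 value in 571 of the genes that rose and the lowest in 454 of those that fell. All 7 adipocyte markers were detected, and their summed level was 23140 to 28873 at ZT12 in CPM, the reads of a gene scaled to a common library total, and 23098 to 30125 at ZT16. Summed macrophage markers lay at 1034 to 1272 and 1025 to 1582 CPM. The 4 liver markers of the table summed to 13.3 to 21.5 CPM at ZT12 and to 17.1 to 26.3 at ZT16, 1 of them (Ttr) being listed at 0 in all 8 libraries. Of 5 pancreas markers the table held 2, and their sum was at most 0.0540 CPM. The summed markers of endothelium and of uterine or ductal epithelium did not overlap between the hours. The 5 endothelial markers summed to 648 to 684 CPM at ZT12 and to 746 to 814 at ZT16, with Emcn (+0.71) and Pecam1 (+0.37) past the test, both on the log2 scale. The 6 markers of uterine or ductal epithelium summed to 12.4 to 17.9 CPM at ZT12 and to 25.3 to 43.4 at ZT16. Of the 3 that were tested, Krt8 passed (+1.24). Over the 56 libraries their sum ran from 8.90 to 5161 CPM. The summed levels of the other 13 marker lists overlapped between the hours. An overlapping sum can hide changes of single markers. Of the 7 adipocyte markers 1 was higher and 2 were lower (14.3% and 28.6%, against 7.89% and 7.19% of all genes). Of the 5 adipose progenitor markers Pi16 was higher (20%), a call lost in 6 of the 8 fits without 1 mouse. The part of all these cell types in the results was not tested. In bulk tissue, fewer cells of a type and less RNA per cell cannot be told apart.

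Expression was compared within each gene as the difference in log2(CPM + 1), ZT16 minus ZT12, which understates the change of low genes. Every fold change given here is on that scale. Of 15610 genes tested with limma, 1232 were higher at ZT16 (7.89%) and 1122 were lower (7.19%) at a Benjamini-Hochberg adjusted p below 0.05, together 15.1%. Most changes were moderate. The median difference was 0.49 among the genes that rose and -0.46 among those that fell, while 121 genes rose and 79 fell at least 2-fold. Over all genes tested the median was 0.0014. The 4 values of each hour did not overlap in 1084 of the 1232 higher genes and 998 of the 1122 lower ones, a separation that 11.4% and 10.3% of all tested genes showed in those directions. Protein-coding genes made up 1178 of the higher and 989 of the lower genes, and long non-coding types 32 and 97. The count of lower genes was 739 without ZT12 replicate 2 and 734 without ZT16 replicate 4.

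The largest rise was in Ppp1r3b and the largest fall in Nr1d1 among the genes that met the rule for naming. Ppp1r3b (chr8:35375739-35388139, mm10) encodes a subunit that brings protein phosphatase 1 to glycogen, where it activates glycogen synthase. It stood at 36.1, 29.5, 42.8 and 98.6 CPM in the ZT12 mice and at 534, 690.0, 255 and 694 CPM in the ZT16 mice. The groups were far apart, with a 10.7-fold rise (log2 difference 3.43, SE 0.68, adjusted p 0.00127). At the other end stood Nr1d1 (chr11:98767932-98775333), which encodes the clock repressor REV-ERBα. Its 4 ZT12 values were 166, 142, 138 and 93.9 CPM and its ZT16 values 15.0, 16.2, 16.4 and 11.9. It fell 8.46-fold (log2 difference -3.08, SE 0.25, adjusted p 2.69e-08). Nr1d1 overlaps Thra on the genome and Ppp1r3b overlaps Gm45469, and the library kit does not mark strand, so reads of such neighbours cannot be told apart. The same holds for Dbp with Sphk2, Prodh with Dgcr6, Ccnd1 with LTO1 and B3galt2 with Cdc73.

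**Figure D1:**
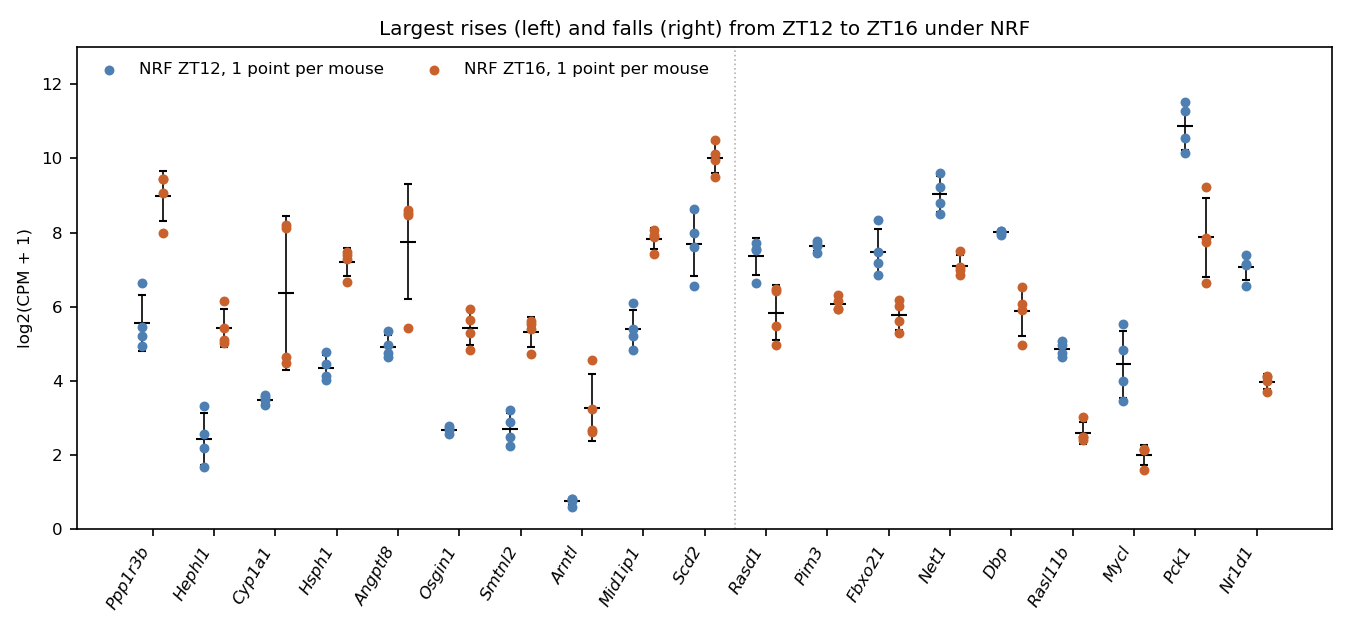
Level of the 10 genes with the largest rises and 9 of the 10 with the largest falls, as log2(CPM + 1) on the vertical axis, for 4 mice at ZT12 and 4 at ZT16 (1 point per mouse, bars are the mean and SD). The groups do not overlap in any of the genes plotted, a condition of their choice, while Cyp1a1 and Angptl8 spread widely at ZT16.

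Other genes among the largest rises varied more between mice. Angptl8, which encodes a secreted angiopoietin-like protein that acts on triglyceride clearance, stood at 23.9, 26.1, 39.5 and 30.1 CPM at ZT12. At ZT16 it reached 386, 365 and 351 CPM in replicates 1, 2 and 4 but only 42.2 CPM in replicate 3 (7.10-fold, adjusted p 0.00828). Angptl8 overlaps Dock6 on the genome. Cyp1a1, a cytochrome P450 gene and classical target of the aryl hydrocarbon receptor, went from 9.13 to 11.3 CPM at ZT12 to 24.1, 276, 21.4 and 292 CPM at ZT16 (7.27-fold). All 4 ZT16 mice were above the ZT12 mice, 2 of them far above. Osgin1, a gene induced by oxidative stress, was more even, at 4.91 to 5.84 CPM before and 27.7 to 60.2 CPM after (6.69-fold, adjusted p 7.56e-09). Hephl1, which encodes a copper ferroxidase, rose 7.97-fold and Smtnl2, a smoothelin-like gene, 6.11-fold.

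Among the falls outside metabolism, Mycl, a MYC family gene, was uneven before the meal at 45.0, 27.3, 14.9 and 10.01 CPM and lay at 2.01 to 3.48 CPM after it. The small GTPase gene Rasl11b fell from 24.2 to 32.4 CPM to 4.31 to 7.23 CPM. Net1, a guanine nucleotide exchange factor gene, fell by 1.93 on the log2 scale, the F-box gene Fbxo21 by 1.69, the kinase gene Pim3 by 1.55 and the dexamethasone-induced Ras gene Rasd1 by 1.52.

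In the core clock list, 10 of 15 genes changed, 4 higher (26.7% against 7.89% of all genes) and 6 lower (40.0% against 7.19%). Arntl and Clock, which encode the activator pair, rose. Arntl was barely detected at ZT12, at 0.532, 0.767, 0.698 and 0.758 CPM, and reached 5.20, 8.45, 5.34 and 22.7 CPM at ZT16 (log2 difference 2.52, SE 0.24, adjusted p 6.06e-07). Clock, its partner, rose 1.93-fold from 28.5 to 37.5 CPM to 56.4 to 80.8 CPM. The Cryptochrome genes followed in the same direction, Cry1 by 1.58-fold and Cry2 by 1.46-fold, with Cry1 not past the test without ZT16 replicate 4 (adjusted p 0.0646). Ciart and the genes of both REV-ERB proteins fell, as did Per1 and Per3. Ciart (chr3:95878503-95882251), a repressor of CLOCK and BMAL1, went from 11.9, 13.9, 14.2 and 9.60 CPM to 2.90, 1.86, 1.08 and 1.25 CPM (4.93-fold lower, adjusted p 7.79e-07). Nr1d2, the paralog of Nr1d1, fell 2.62-fold to 38.7 to 77.8 CPM. Per1 fell 2.51-fold and Per3 1.89-fold, whereas Per2 stood at 60.8 to 70.8 CPM before and 70.7 to 118 CPM after, with overlapping groups (log2 difference 0.53, SE 0.34, adjusted p 0.329). Rora, an activator of Arntl transcription, fell 1.44-fold. Npas2, whose product can replace CLOCK, was at 0.203 to 0.332 CPM and 0.351 to 1.72 CPM and did not pass the test (adjusted p 0.143). The values of Bhlhe40 at ZT16 were 226, 173 and 188 CPM in replicates 1, 2 and 4 and 33.0 in replicate 3, and the gene did not pass the test (adjusted p 0.352).

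The E-box CACGTG, read on both strands, occurred between 250 bases before and 50 bases after the RefSeq start of 4 of the 12 core clock genes with a listed promoter (Per1, Cry1, Bhlhe41 and Ciart), and in 8.09% of 27025 promoters. Ciart and Per1 are shown because both fell and carry the motif, Ciart in 3 copies. The 250 bases before the RefSeq start (GRCm38.p6) are given on the gene's strand, Ciart at chr3:95882229-95882478 on the minus strand and Per1 at chr11:69098699-69098948 on the plus strand, with the E-boxes in capitals. They begin 116, 58 and 44 bases before the start of Ciart and 166 before that of Per1.
Ciart: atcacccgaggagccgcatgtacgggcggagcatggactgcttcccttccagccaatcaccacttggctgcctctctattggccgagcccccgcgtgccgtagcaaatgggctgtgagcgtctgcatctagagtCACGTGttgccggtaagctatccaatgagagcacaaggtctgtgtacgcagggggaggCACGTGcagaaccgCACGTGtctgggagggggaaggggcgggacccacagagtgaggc
Per1: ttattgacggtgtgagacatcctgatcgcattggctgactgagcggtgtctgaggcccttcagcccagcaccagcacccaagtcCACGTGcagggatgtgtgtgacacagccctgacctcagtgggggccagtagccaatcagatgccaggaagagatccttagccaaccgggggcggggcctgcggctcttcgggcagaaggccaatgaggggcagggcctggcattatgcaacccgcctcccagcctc
The motif did not mark a direction, since Cry1, which also has one, rose and Bhlhe41 did not pass the test.

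Of 7 clock output genes 1 rose (14.3% against 7.89% of all genes) and 2 fell (28.6% against 7.19%). Dbp, a PAR bZIP activator driven by E-boxes, had nearly the same level in the 4 ZT12 mice (264, 260.2, 255 and 243 CPM) and spread from 30.1 to 91.9 CPM at ZT16 (4.38-fold lower, SE 0.26 on the log2 scale, adjusted p 1.05e-05). Nfil3, the repressor that competes with DBP for D-boxes, moved the other way, from 5.22 to 9.45 CPM to 20.9, 37.0, 14.6 and 60.6 CPM (3.80-fold higher, adjusted p 8.45e-05). Hlf fell 1.45-fold, and it did not pass the test in 5 of the 8 fits that left out 1 mouse (adjusted p up to 0.146). Tef, the other PAR bZIP gene of the list, was lower by 0.44 on the log2 scale without passing the test (adjusted p 0.22).

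**Figure D2:**
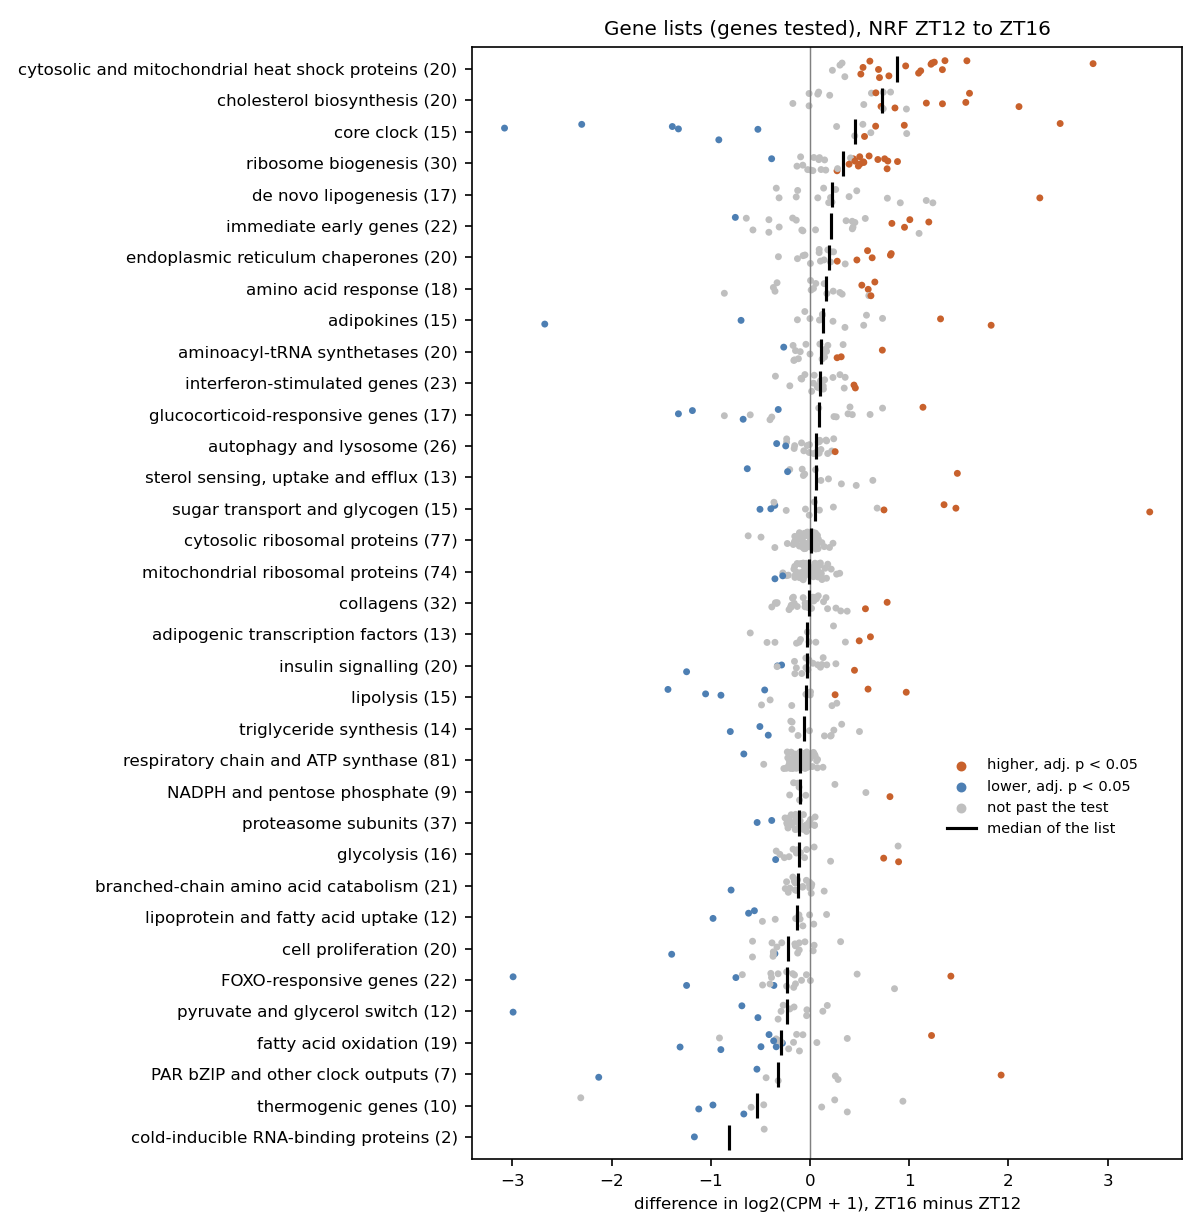
Difference in log2(CPM + 1), ZT16 minus ZT12, on the horizontal axis, for the tested genes of 35 gene lists (number in brackets, 1 point per gene), ordered by their median (black bar). Heat shock proteins and cholesterol synthesis have the highest medians, 0.88 and 0.73, and ribosomal proteins, respiratory chain and proteasome cluster near 0.

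Besides Ppp1r3b, Ppp1r3c went from 29.9, 27.4, 42.6 and 44.0 CPM to 147, 129, 50.7 and 101 CPM (2.77-fold, adjusted p 0.00234) and Ppp1r3d from 6.49 to 10.9 CPM to 13.5 to 20.5 CPM (1.68-fold). Gys1, the muscle-type glycogen synthase that fat uses, fell 1.42-fold, from 175, 209, 213 and 214 CPM to 129, 148, 146 and 146 CPM. Hk2, an insulin-responsive hexokinase, rose 2.55-fold but did not pass the test in 7 of the 8 fits without 1 mouse (adjusted p up to 0.127). Of the 15 sugar and glycogen genes 4 were higher (26.7% against 7.89% of all genes) and 3 lower (20% against 7.19%), with the calls of Gyg and Slc2a1 lost in 5 and 4 of the same 8 fits. The glucose transporter gene Slc2a4 was at 215 to 461 CPM before and 407 to 614 CPM after (adjusted p 0.208). Of 16 glycolysis genes 2 rose, Pfkp by 0.74 and Pfkfb4 by 0.89 on the log2 scale, and 1 was lower (12.5% and 6.25%), Pfkm, whose call was lost in 5 of the 8 fits without 1 mouse (adjusted p up to 0.12).

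Of 15 genes of triglyceride release 3 were higher (20%, against 7.89% of all genes) and 4 lower (26.7%, against 7.19%). Among them the monoglyceride lipase gene Abhd6 lost its call in 7 of the 8 fits without 1 mouse (adjusted p up to 0.137). Lipe (chr7:25379527-25398710), which encodes hormone-sensitive lipase, fell 1.86-fold, from 1739, 1919.8, 2156 and 1907 CPM to 1026, 1118, 1152 and 860.2 CPM (SE 0.13 on the log2 scale, adjusted p 5.34e-05). The β3-adrenergic receptor gene Adrb3, which carries the lipolytic signal, stood at 329 to 483 CPM at ZT12 and 156 to 267 CPM at ZT16, but its call was lost in 6 of the 8 fits without 1 mouse (adjusted p 0.0435 with all mice, up to 0.131). Hcar2, a receptor that restrains lipolysis, also fell, 2.70-fold. G0s2, the inhibitor of adipose triglyceride lipase, rose 1.96-fold, from 143, 125, 229 and 231 CPM to 369, 428, 239 and 375 CPM. The lipase that it inhibits, Pnpla2, was at 2549 to 3599.8 CPM before and 2812 to 3037 CPM after (log2 difference 0.00, SE 0.16). Plin1, the main coat protein of the lipid droplet, fell 1.37-fold, with an adjusted p of 0.0505 when ZT12 replicate 3 was left out.

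Pck1 (chr2:173153048-173159273), which encodes the carboxykinase of glyceroneogenesis, fell from 2917, 1486, 2489 and 1128 CPM to 214, 232, 603 and 99.4 CPM (7.97-fold, log2 difference -2.99, SE 0.71, adjusted p 0.00519). The glycerol channel gene Aqp7 and the glycerol kinase gene Gk also fell, by 0.53 and 0.69 on the log2 scale. Of the 12 genes of the pyruvate and glycerol list 3 were lower (25%) and none higher, against 7.19% and 7.89% of all genes. Pdk4, a pyruvate dehydrogenase kinase and a well-known fasting gene, stood at 57.4 to 93.3 CPM at ZT12 and at 39.9, 45.1, 111 and 44.7 CPM at ZT16 (adjusted p 0.663). Among FOXO-responsive genes 1 of 22 rose (4.55%) and 4 fell (18.2%), and of 20 genes of insulin signalling 1 rose (5.0%) and 3 fell (15%), against 7.89% and 7.19% of all genes. In the insulin list Pdpk1, Pik3ca and Trib2 lost their calls in 8, 5 and 6 of the 8 fits without 1 mouse. Irs2, an insulin receptor substrate that FOXO1 induces, belongs to both lists and fell 2.37-fold, from 57.1, 81.1, 88.1 and 82.5 CPM to 26.4, 27.5, 54.3 and 25.1 CPM (adjusted p 0.0108). Txnip, which limits glucose uptake, fell 1.68-fold, a call lost in 6 of the 8 fits without 1 mouse (adjusted p up to 0.101).

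Of 17 genes of de novo lipogenesis Scd2 was the 1 that rose (5.88% against 7.89% of all genes). Its 4 values were 93.1, 194, 254 and 395 CPM at ZT12 and 721, 1099, 992 and 1449 CPM at ZT16 (4.98-fold, adjusted p 0.0222), but it did not pass the test without ZT12 replicate 1 (0.0831), ZT12 replicate 2 (0.0528) or ZT16 replicate 4 (0.0667). Mid1ip1, which encodes an activator of acetyl-CoA carboxylase and is not in the list, rose 5.42-fold, from 27.8, 36.2, 41.2 and 67.5 CPM to 236, 243, 171 and 268 CPM (adjusted p 0.00016). The main enzymes already varied widely among the fasted mice. Acly stood at 499 CPM in ZT12 replicate 1 and at 4526, 3706 and 7053 CPM in the others, against 3541 to 8654 CPM at ZT16 (adjusted p 0.615). Fasn stood at 11468 to 35799.8 CPM and 14686 to 27767 CPM (adjusted p 0.842). Mlxipl, the gene of the glucose-sensing factor ChREBP, did not overlap between the hours (96.3 to 141 and 179 to 416 CPM), yet its adjusted p was 0.0812. In triglyceride synthesis 3 of 14 genes fell (21.4% against 7.19% of all genes) and none rose. Dgat1 fell 1.42-fold from 450.3 to 492 CPM to 306 to 371 CPM (adjusted p 0.000152), and the acyltransferase gene Gpat3 fell 1.75-fold.

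Of 19 tested genes of fatty acid oxidation 7 fell (36.8% against 7.19% of all genes) and 1 rose, with a median of -0.29. Ppara, the nuclear receptor that drives oxidation genes in the fast, fell 2.48-fold, from 14.5, 7.77, 13.02 and 13.99 CPM to 4.98, 5.11, 4.42 and 2.82 CPM (adjusted p 0.000308). Ehhadh, a peroxisomal oxidation enzyme, went from 101 to 110.0 CPM to 45.5 to 67.7 CPM (1.86-fold lower). Cpt1a, the gate of mitochondrial uptake, fell 1.41-fold and lost its call without ZT16 replicate 4 (adjusted p 0.0583), where 5 of the 19 genes passed the test in place of 8. Cpt2 and Hadha, also among the 7 that fell, each lost their calls in 4 of the 8 fits without 1 mouse (adjusted p up to 0.093 and 0.0853). The 1 that rose was Ucp3, a mitochondrial carrier gene, which rose 2.34-fold to 92.7 to 129.5 CPM. In the uptake list 3 of 12 genes were lower (25%) and none higher, with the call of Slc27a1 lost in 3 of the 8 fits without 1 mouse. Acsl1, the main acyl-CoA synthetase of fat, fell 1.97-fold, from 3799.6, 4971, 4912 and 4794 CPM to 2063, 2643, 2463 and 2199 CPM, while Lpl (7897 to 9855 CPM at ZT16) and Cd36 did not pass the test (adjusted p 0.816 and 0.909).

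In cholesterol synthesis 8 of 20 genes were higher (40.0% against 7.89% of all genes) and none lower (7.19% of all genes), with a median of 0.73 and 17 of the 20 differences above 0. The steepest rise was in Mvd, mevalonate diphosphate decarboxylase, from 13.3, 15.8, 15.98 and 28.3 CPM to 53.3, 75.4, 89.0 and 109 CPM (4.31-fold, adjusted p 0.00366). Sqle, the squalene epoxidase, rose 3.05-fold and Hsd17b7, of the later steps, 2.97-fold. The count of 8 was 4 without ZT12 replicate 1, ZT12 replicate 2, ZT16 replicate 2 or ZT16 replicate 4. Sqle lost its call in these 4 fits (adjusted p up to 0.0915), with log2 differences of 1.38 to 1.61 against 1.61 with all mice.

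Heat shock proteins, the chaperones of cytosol and mitochondria, showed the broadest rise of any list. Of 20 genes 16 rose (80.0% against 7.89% of all genes), none fell, all 20 differences lay above 0 and the median was 0.88. Of the 16, Fkbp4 lost its call in 5 of the 8 fits without 1 mouse. Hsph1, an exchange factor of HSP70, went from 21.0, 15.2, 16.7 and 26.6 CPM to 166, 179, 100.2 and 156 CPM (7.23-fold, log2 difference 2.85, SE 0.31, adjusted p 2.59e-06). The constitutive HSP70 gene Hspa8 rose from 755, 472, 521 and 635 CPM to 1704, 1763, 1606 and 1973 CPM (2.99-fold, adjusted p 3.86e-05). The inducible HSP70 genes Hspa1a and Hspa1b rose 2.52-fold and 2.14-fold, but they are near-identical copies whose reads cannot be divided with certainty. Hsp90aa1 rose 2.17-fold, from 159 to 186 CPM to 299.7 to 395 CPM, the J-domain gene Dnaja1 2.33-fold and the collagen chaperone gene Serpinh1 2.38-fold. The mitochondrial pair Hspd1 and Hspe1 was among the 4 genes that did not pass the test, with differences of 0.23 and 0.30 (adjusted p 0.282 and 0.114). In the opposite direction moved Cirbp, the cold-inducible RNA-binding protein, which fell 2.24-fold, from 47.9, 55.7, 44.8 and 35.0 CPM to 19.6, 15.8, 20.8 and 22.8 CPM (adjusted p 0.00044). Its relative Rbm3 was lower by 0.46 on the log2 scale at an adjusted p of 0.0508.

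The heat shock element, searched on both strands as GAA, any 2 bases, TTC, any 2 bases and GAA, lay near the start of 4 of 17 heat shock genes with a listed promoter and in 0.662% of all promoters. The matches are shown in windows of 29 bases with the motif in capitals, since they occurred both in genes that rose (Hsph1, Chordc1) and in genes that did not pass the test (Hspd1, Hspe1). The window of Hsph1 (chr5:149636287-149636315, minus strand) and that of Chordc1 (chr9:18292260-18292288, plus strand, overlapping matches) lie at the RefSeq start, that of Hsph1 after it and that of Chordc1 across it. Hspd1 is read at chr1:55088056-55088084 on the minus strand, in a stretch that it shares with the divergent Hspe1.
Hsph1: gtaaaatgctgcagaTTCTGGAAAGTTCt
Chordc1: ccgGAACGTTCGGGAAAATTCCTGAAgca
Hspd1: gcggggccTTCCGGAAGGTTCTAGAAcgg
Chordc1, a partner of HSP90, rose 2.35-fold, from 33.1 to 46.2 CPM to 65.6 to 106 CPM.

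Of the chaperones of the endoplasmic reticulum 6 of 20 were higher (30% against 7.89% of all genes) and none lower (7.19% of all genes), with a median of 0.19. Of the 6, Ddit3 and Dnajc3 lost their calls in 4 and 2 of the 8 fits without 1 mouse. Hspa5, the HSP70 of the endoplasmic reticulum, went from 288, 239, 292 and 284 CPM to 466, 499.7, 458 and 509 CPM (1.75-fold, SE 0.11 on the log2 scale, adjusted p 2.65e-05). Sdf2l1 and Manf, which also fold or protect secretory proteins, rose by 0.82 and 0.63, and Hyou1 by 0.47. The endoplasmic reticulum stress element, searched on both strands as CCAAT, any 9 bases and CCACG, was found in 7 of 18 promoters of the list and in 0.137% of all promoters. Of the 7 genes, Hspa5 and Dnajc3 rose and 5 did not pass the test (Hsp90b1, Pdia6, Calr, Canx and Creld2). The elements of the 2 that rose, in capitals, are read on the plus strand at chr2:34772020-34772048 for Hspa5 and chr14:118937822-118937850 for Dnajc3.
Hspa5: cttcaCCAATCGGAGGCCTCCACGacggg
Dnajc3: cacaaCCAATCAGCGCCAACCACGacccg
Dnajc3 rose by 0.27 on the log2 scale (adjusted p 0.0229), and its difference was 0.24, with the call lost, without ZT12 replicate 1 or ZT16 replicate 2 (0.076 and 0.0766).

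In ribosome biogenesis 15 of 30 genes rose (50% against 7.89% of all genes) and 1 fell (3.33% against 7.19%), with a median of 0.34. Of those that rose, Nop58, Polr1b, Wdr43 and Nop16 lost their calls in 5, 5, 4 and 1 of the 8 fits without 1 mouse. Tsr1, a factor of small-subunit maturation, went from 12.4, 12.5, 13.3 and 15.0 CPM to 26.3, 24.5, 24.2 and 26.3 CPM (1.84-fold, adjusted p 0.00152). Heatr1, of the early small-subunit particle, rose 1.68-fold, from 12.5 to 17.3 CPM to 22.9 to 26.8 CPM. Polr1a, the largest subunit of RNA polymerase I, rose 1.45-fold, and the snoRNP protein gene Nop56 1.42-fold. The snoRNP gene Dkc1 was the 1 that fell (1.31-fold, adjusted p 0.00417). None of 77 cytosolic ribosomal protein genes passed the test (median 0.0073), and 2 of 74 mitochondrial ones (2.70%), 1 of 81 respiratory chain genes (1.23%) and 2 of 37 proteasome genes (5.41%) were lower. The mitochondrial calls, Mrps9 and Mrps30, were lost in 4 and 6 of the same 8 fits, both of them without ZT12 replicate 1. Among 20 aminoacyl-tRNA synthetase genes 3 rose (15%) and 1 fell (5.0%), against 7.89% and 7.19% of all genes, and Vars, Wars and Tars lost their calls in 5, 4 and 1 of the 8 fits without 1 mouse. In the amino acid response list 4 of 18 rose, 22.2% (Atf4, Trib3, Slc3a2 and Cth), each of them losing its call in at least 6 of the 8 fits without 1 mouse.

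Among 22 immediate early genes 4 rose (18.2% against 7.89% of all genes) and 1 fell (4.55% against 7.19%). The AP-1 genes Fosl2 and Jun rose 2.29-fold and 1.94-fold, Fosl2 from 31.6, 42.2, 49.2 and 42.1 CPM to 102, 110.3, 66.6 and 108 CPM and Jun from 32.4 to 55.9 CPM to 63.6 to 101 CPM. Fos and Egr1 differed among the ZT12 mice themselves, Fos with 19.1 CPM in 2 of them and 1.14 and 2.41 CPM in the others, and neither passed the test (adjusted p 0.916 and 0.473). Of 15 adipokine genes 2 were higher and 2 lower (13.3% each), with the call of Apln lost in 2 of the 8 fits without 1 mouse. Lep, the gene of the satiety hormone leptin, rose 3.55-fold, from 245, 241, 371 and 466 CPM to 1115, 1071, 1057 and 1289 CPM (adjusted p 0.00108). Adipoq was at 2838 to 3434 CPM and 3101 to 3614 CPM (adjusted p 0.702). Among 17 glucocorticoid-responsive genes 1 was higher (5.88%) and 4 lower (23.5%), Per1 among them. The higher one, Cdkn1a, lost its call in 4 of the 8 fits without 1 mouse. The other lower ones, Sgk1, Zbtb16 and Klf9, lost their calls in 6, 7 and 6 of the 8 fits without 1 mouse, and Fkbp5 did not pass the test. Of 10 thermogenic genes 3 fell, 30% (Cidea, Cox8b and Otop1), and these calls were lost in 6, 6 and 5 of the 8 fits without 1 mouse. Ucp1 went from 19.7, 8.57, 14.02 and 44.9 CPM to 1.52, 0.738, 13.8 and 2.45 CPM without passing the test (adjusted p 0.067). Other lists had 1 to 3 genes past the test, against 7.89% higher and 7.19% lower over all genes. They were interferon-stimulated genes (2 of 23 higher, 8.70%), collagens (2 of 32 higher, 6.25%), NADPH supply (1 of 9 higher, 11.1%), adipogenic transcription factors (2 of 13 higher, 15.4%), branched-chain amino acid catabolism (1 of 21 lower, 4.76%), autophagy (1 of 26 higher, 3.85%, and 2 lower, 7.69%) and proliferation (2 of 20 lower, 10%). Of these genes Mcm3 lost its call in 8 of the 8 fits without 1 mouse, Rtp4 in 7, Tfe3 and Atg7 in 6, Wipi1 in 5, Rpia in 3 and Ppm1k in 1.

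Over the day of NRF mice, the hours of the highest and lowest means are given as a description, since genes chosen for a difference between ZT12 and ZT16 tend by that choice to have an extreme near 1 of these hours. Of the 1232 genes that rose, 502 had their lowest mean of the 7 time points at ZT12 and 548 at ZT8, and 435 had their highest at ZT16 and 567 at ZT20. Of the 1122 that fell, 620 were highest at ZT12 and 349 at ZT8, and 359 were lowest at ZT16 and 532 at ZT20. The mean at ZT20 was beyond that at ZT16 for 741 of the rising and 708 of the falling genes. Nr1d1 had already come down from 254 ± 29.03 CPM (SD, n = 4) at ZT8 to 135 ± 30.05 at ZT12, and it went on from 14.9 ± 2.08 at ZT16 to 4.48 ± 0.301 at ZT20. Cyp1a1 stood at 10.3 ± 0.934 CPM at ZT12, 153 ± 151 at ZT16 and 27.1 ± 8.78 at ZT20, and its 2 low ZT16 mice lay within the ZT20 range of 20.1 to 38.4 CPM. Ppp1r3b stood at 543 ± 206 CPM at ZT16 and 597 ± 126 at ZT20.

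**Figure D3:**
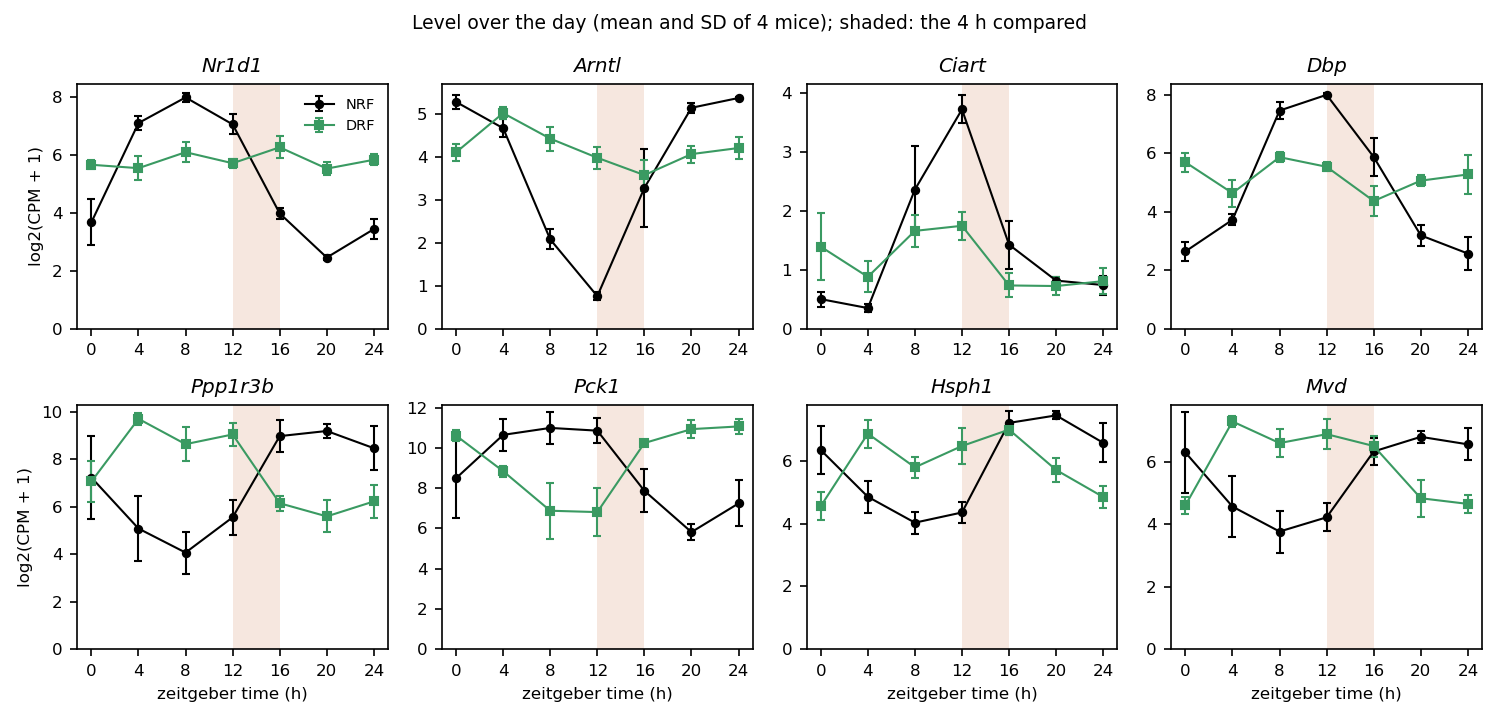
Level of 8 genes as log2(CPM + 1) against zeitgeber time in hours, NRF (black) and DRF (green), mean and SD of 4 mice at each point, with the ZT12 to ZT16 window shaded. In NRF, Nr1d1, Ciart and Dbp drop and Arntl climbs within the window, while Ppp1r3b, Hsph1 and Mvd rise in the window and in DRF from ZT0 to ZT4.

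Feeding onset by night was then set against feeding onset by day, DRF ZT0 to ZT4, a change made of other mice. In DRF 2593 of 15736 genes were higher at ZT4 (16.5%) and 2152 lower (13.7%). Of the genes that rose at night and were tested in both fits 1044 (85.1%) also had a positive difference by day, and of those that fell 937 (83.7%) had a negative one, against 50.2% positive differences among all genes tested. Day and night passed the test in the same direction for 691 of the rising and 567 of the falling genes and in opposite directions for 11 and 19. Across the 2347 changed genes present in both fits the differences correlated at 0.788, and at 0.523 across all 15509, as a description across genes that are not independent. By day 17 of 20 heat shock genes were higher (median 0.61), 14 of 20 in cholesterol synthesis (median 1.00) and 24 of 30 in ribosome biogenesis (median 0.51). Mitochondrial ribosomal proteins gave 42 of 74 higher by day (median 0.32) and none higher by night (median -0.012), and respiratory chain genes 31 of 81 by day (median 0.35) and none by night (median -0.098). The test of the difference between night and day, described next, was passed by 2 ribosome biogenesis genes, both in the negative direction, and by no gene of the other 4 lists.

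The test of the difference, night change minus day change, was passed by 51 genes in the positive direction (0.324% of 15736) and 77 in the negative (0.489%). These counts depended on single mice and also on the fit, with the 16 libraries alone or a replicate block (counts given at the end). They were 10 and 15 without NRF ZT16 replicate 1 or without DRF ZT0 replicate 4, and 202 and 264 without DRF ZT0 replicate 3. With DRF ZT24 in place of ZT0 as the baseline 2 of the 10 genes named from this test lost their calls, Mir6392 and Pank3, and the same 2 did so when DRF ZT8 replicate 1 and ZT0 replicate 4 were left out together, with both counts within 1.5 times of 51 and 77. Among the named genes, Nr1d1 gave the largest negative difference between the changes, -2.96 (SE 0.32, adjusted p 1.05e-07). Against its steep nighttime fall, DRF mice had 49.8 ± 5.25 CPM at ZT0 and 47.2 ± 14.8 at ZT4 (SD, n = 4). Ciart fell by night and had a difference of -0.51 by day that did not pass the test (difference -1.79, adjusted p 0.00282). Arntl rose in both, by 2.52 and 0.91, and the difference of 1.61 passed the test (adjusted p 0.00728). Most of the core clock list did not pass the test of the difference. Of its 15 genes 1 passed in the positive direction and 2 in the negative. By day 4 of the 15 were higher and 4 lower, against 16.5% and 13.7% of all genes.

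Hlf moved in opposite directions, lower by night and higher by 0.81 by day (difference -1.35, adjusted p 0.00361). Pim3, which fell by night, had a day change of -0.15 (difference -1.40, adjusted p 0.00173). The cyclin gene Ccnd1 responded by day, from 18.9 ± 4.22 to 74.6 ± 7.36 CPM, against 24.6 ± 5.79 and 30.1 ± 2.46 CPM by night (difference -1.64, adjusted p 0.0126). Prodh, of proline breakdown, rose by night from 38.1, 20.4, 23.98 and 29.7 CPM to 91.3, 63.9, 64.6 and 63.2 CPM and by day went from 33.0 ± 8.55 to 21.5 ± 5.03 CPM (difference 1.91, adjusted p 0.0205, lost without NRF ZT16 replicate 1 at 0.0658 or DRF ZT4 replicate 3 at 0.056). Fmo2, a flavin monooxygenase gene, was higher by 0.74 by night (adjusted p 0.068) and fell by 0.96 by day (difference 1.70, adjusted p 0.00988). For the storage and chaperone genes that led the nighttime rise the test was not passed, with differences of 0.78 (95% interval -0.87 to 2.43) for Ppp1r3b and 0.54 (95% interval -0.31 to 1.40) for Hsph1, nor for Pck1 with -1.22 (95% interval -3.03 to 0.58). Intervals of this width do not show that the changes were equal.

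**Figure D4:**
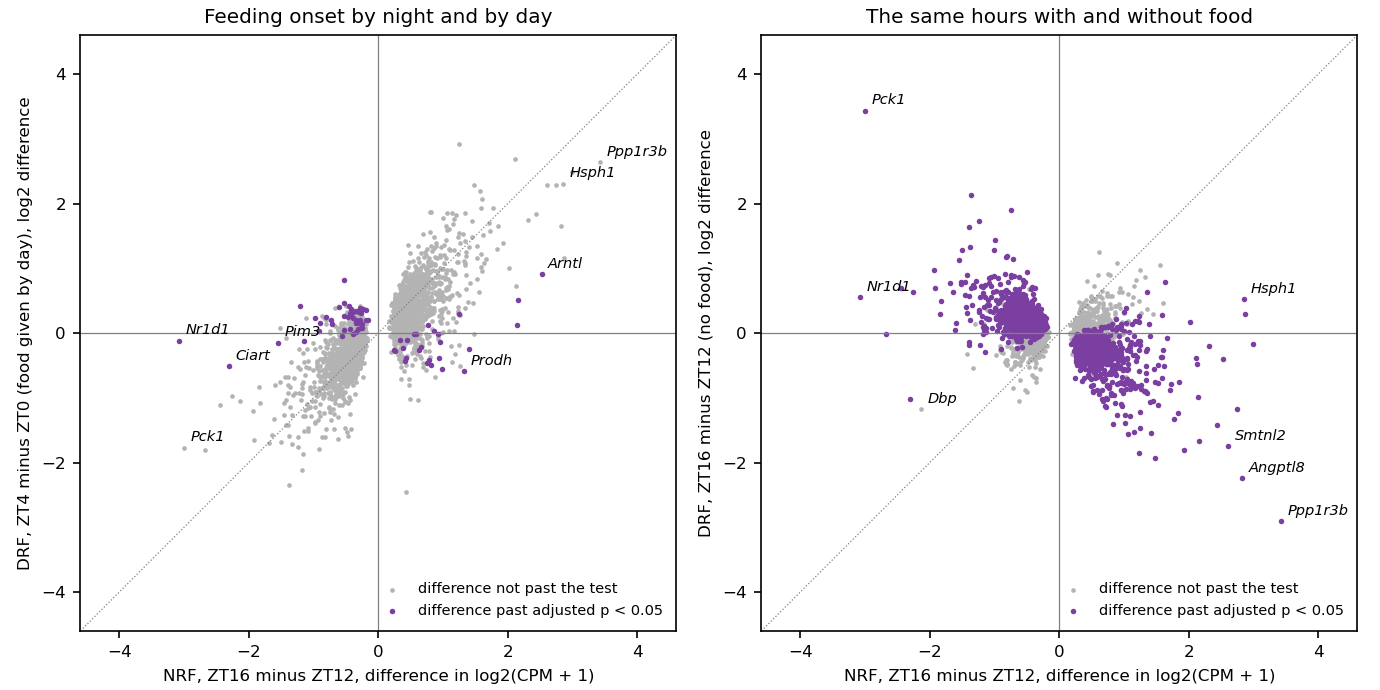
For the 2347 genes changed from ZT12 to ZT16 in NRF, that log2 difference (horizontal axes) against the change in DRF mice from ZT0 to ZT4 (left) and from ZT12 to ZT16 (right), with genes whose 2 changes differ at adjusted p below 0.05 in purple. On the left most points lie in the quadrants of equal sign, with Nr1d1, Ciart, Pim3 and Prodh apart, and on the right most lie in the quadrants of opposite sign.

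Over the same clock hours with food withdrawn, DRF ZT12 to ZT16, most of these genes did not follow. In DRF 361 of 15736 genes were higher (2.29%) and 635 lower (4.04%). Of the genes that rose in NRF and were tested in both fits 346 (28.2%) had a positive difference in DRF, and of those that fell 406 (36.3%) had a negative one, with 48.3% positive among all genes tested. Both changes passed in the same direction for 22 and 20 genes and in opposite directions for 186 and 101. The correlation was -0.481 across the 2347 genes and -0.282 across all. The difference NRF minus DRF was positive and past the test for 1421 genes (9.03%) and negative for 971 (6.17%).

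Among the named genes, the largest differences of each sign were in Pck1 and Ppp1r3b. Pck1 fell in NRF and rose in DRF from 146 ± 127 to 1221 ± 88.4 CPM (difference -6.43, SE 0.90, adjusted p 1.40e-06). Ppp1r3b did the reverse, going from 552 ± 179 to 71.3 ± 15.2 CPM in DRF (difference 6.33, SE 0.82, adjusted p 3.47e-07). Angptl8 went from 266 ± 68.4 to 55.3 ± 11.9 CPM in DRF (difference 5.07), Smtnl2 from 26.2 ± 3.53 to 7.08 ± 1.25 CPM (difference 4.36), Osgin1 from 30.2 ± 6.56 to 12.9 ± 2.85 CPM (difference 3.91) and Mid1ip1 from 221 ± 70.4 to 79.3 ± 11.6 CPM (difference 3.87). Among the negative differences, B3galt2, a galactosyltransferase gene, rose in DRF from 75.1 ± 16.3 to 329 ± 43.3 CPM (difference -3.49) and Fam214a from 66.3 ± 11.9 to 212 ± 62.8 CPM (difference -3.03).

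Dbp and Ciart fell in both regimens over these hours. Dbp fell in NRF and also in DRF, from 45.6 ± 4.75 to 20.6 ± 6.96 CPM, and the difference of -0.96 did not pass the test (adjusted p 0.0868). In DRF, Dbp was also lower at ZT4 (24.8 ± 7.90 CPM) than at ZT0 (51.7 ± 11.9 CPM). The paper reports Dbp as arrhythmic in VAT under DRF. Ciart fell from ZT12 to ZT16 in both regimens but further in NRF (difference -1.29, adjusted p 0.003). Hsph1 stood at 93.4 ± 41.7 CPM at ZT12 and 127 ± 15.3 at ZT16 in DRF, against 19.9 ± 5.14 and 150.2 ± 34.6 CPM in NRF, and its difference of 2.33 passed the test (adjusted p 8.47e-05). In DRF 3 of 20 heat shock genes were higher (2.29% of all genes) and none lower, and 11 of the 20 passed the test of the difference in the positive direction (9.03% of all genes). So did 9 of 20 cholesterol genes and 18 of 30 ribosome biogenesis genes. Of 22 FOXO-responsive genes 12 passed it in the negative direction (6.17% of all genes) and 3 in the positive.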

How the data were processed

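Poly-A RNA from VAT of 56 mice was sequenced, and 1 table of 25939 genes by 56 libraries was deposited. According to the submitters' processing notes, reads were aligned with HISAT2 2.0.5 to mm10 and counted with featureCounts 1.5.0-p3. The values deposited by the authors are labelled TPM but behave as a score: log2(1 + CPM) of a gene, divided by its exon length and rescaled in each library. Exon lengths came from GENCODE vM21 for 25039 genes and from the values for 878. Undoing these steps gave log2(CPM + 1), relative to the library size that the values imply, and whole reads. Of 1424971 values tested, 99.9994% lay within 0.02 of a whole read.

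The 28 NRF libraries were fitted with limma 3.58.1 (trend, 7 groups, 21 residual degrees of freedom, R 4.3.3) on log2(CPM + 1), keeping genes with a mean CPM of at least 0.5. The contrast was ZT16 minus ZT12, with Benjamini-Hochberg adjusted p below 0.05 over 15610 genes. Differences between changes were fitted on all 56 libraries in 14 groups (15736 genes), and every adjusted p in the text comes from these limma fits or from the same fits without 1 mouse. On simulated counts for the ZT16 contrast over 15610 genes, 92 of 100 genes changed 2-fold and 35 of 100 changed 1.5-fold were called, with 8 of 15410 unchanged genes. The simulation gave every gene the same spread between mice, a dispersion of 0.03. These shares therefore do not hold for genes that varied more. Ppp1r3b, for example, had an SD of 0.75 at ZT12 and 0.68 at ZT16 on the log2 scale.

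The named genes were the 10 largest rises and falls with mean CPM of at least 5 and no overlap between groups. The key genes of each list were added, with up to 4 more by their statistic. Each difference test added 5 genes with large differences in each direction. These were not the 5 largest of all genes tested. Ciart was not among them, although its negative night minus day difference was larger than that of Ccnd1. Gene lists, marker lists and members were chosen with earlier results of these data known. The 35 pathway lists are described by counts and medians. Alternatives covered scaling, pseudocount, filter, threshold, model, replicate block, each mouse left out and, for night minus day, DRF ZT24 as the baseline or DRF ZT8 replicate 1 and ZT0 replicate 4 left out together. Promoters are from the RefSeq table (GRCm38.p6). Plots used Python 3.11.15 and matplotlib 3.10.9. Results for some genes are not reported here.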

Additional observations from a re-analysis of the deposited data

Results flagged for a closer look

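In 88 groups of 4 mice checked, 8 held 1 mouse far from the other 3, by the gap to its nearest neighbour as a share of the whole range, past the 95% critical value of Dixon's test. Chance gives about 1 such group in 20. At ZT16, replicate 3 lay apart for Angptl8 (0.957, lowest), for Rasl11b (0.868, highest), for the summed adipocyte markers (0.871, highest) and for the summed B cell markers (0.915). Replicate 4 lay apart for Mycl (0.947, lowest) and replicate 1 for Prodh (0.938, highest). At ZT12, replicate 4 lay apart for Rasd1 (0.831, lowest) and replicate 3 for the summed markers of uterine or ductal epithelium (0.988, lowest).

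The change from ZT12 to ZT16 in NRF differed from the change at daytime feeding onset in 51 genes in the positive and 77 in the negative direction. Both counts depended on single mice and on the fit. The differences between both changes, on the log2 scale, were 2.02 for Mir6392, 1.91 for Prodh, 1.70 for Fmo2, 1.61 for Arntl and 1.31 for Rasl11a, and -2.96 for Nr1d1, -1.64 for Ccnd1, -1.58 for Pank3, -1.40 for Pim3 and -1.35 for Hlf. Mir6392 lies within Pnpla3, and its call was lost in 11 of 16 fits that left out 1 mouse, that of Pank3 in 9 and that of Rasl11a in 3.

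Against the same clock hours in DRF mice, the NRF change differed in 1421 genes in the positive and 971 in the negative direction. The named differences were 6.33 for Ppp1r3b, 5.07 for Angptl8, 4.36 for Smtnl2, 3.91 for Osgin1 and 3.87 for Mid1ip1, and -6.43 for Pck1, -3.63 for Nr1d1, -3.49 for B3galt2, -3.14 for Mycl and -3.03 for Fam214a.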

How the results depend on the processing

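No named result turned its direction under the alternatives run. The NRF counts of 1232 higher and 1122 lower genes became 605 and 490 with a log2 difference of at least 0.5 required, and 580 and 524 at an adjusted p below 0.01. Leaving out 1 mouse gave 823 to 1226 and 734 to 1121. Under the other settings both counts stayed within 1.5 times. The night minus day counts of 51 and 77 were 15 and 26 with the 16 libraries alone and ranged from 10 to 202 and from 15 to 264 without 1 mouse. The cause was not tested. The NRF minus DRF counts ranged from 1149 to 1427 and from 796 to 1008 without 1 mouse. Of 167 named genes past the test, 110 passed in all 8 fits without 1 mouse and 89 in every alternative.

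The replicate block gave 148 and 184 genes for night minus day and moved the counts of the other comparisons by less than 1.5 times. Numbers name different mice. Deviations from the group mean of same-numbered NRF ZT12 and ZT16 mice correlated at 0.20, -0.16, -0.20 and 0.02, none best with its own number. Same-numbered DRF mice were not compared, so these correlations do not cover the fit behind the night minus day counts. Depth limits genes near the filter, where few reads set the value.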
